A study of Mus musculus with 12 samples.

Results

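The mRNA levels of 8 genes that act where a BET inhibitor acts were followed in mouse liver: the BET genes Brd2 and Brd3; Cdk9, Ccnt1 and Ccnt2, which encode the kinase and the cyclins of positive transcription elongation factor b (P-TEFb); Hexim1 and Larp7, whose products hold P-TEFb in an inactive particle; and Myc. The genes were chosen by name, for their roles, from 47729 gene identifiers, of which 29576 had a count in at least 1 mouse and 16823 were expressed highly enough to be tested. All 8 passed that filter. RNA was sequenced from whole livers of 12 C57BL/6 mice in 3 groups of 4. The healthy group was made of naive wild-type mice that received vehicle. The vehicle group was made of STAM mice, in which streptozotocin given shortly after birth damages the insulin-producing cells and a later high-fat diet brings on fatty liver and steatohepatitis, and these mice also received vehicle. The I-BET151 group was made of STAM mice that received I-BET151 (GSK1210151A), a small-molecule BET inhibitor, at 10 mg/kg by mouth once a day from the sixth to the ninth week of age. The mice were male. Streptozotocin and the diet were common to the vehicle and I-BET151 groups and absent from the healthy group, so they cannot be told apart from each other as sources of a difference between healthy and vehicle livers. The methods of the study also describe different carriers for the drug and for the vehicle. The livers were labelled as separate animals.

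BET proteins carry paired bromodomains that read acetylated histone tails and bring transcription regulators to promoters and enhancers. P-TEFb, a cyclin-dependent kinase 9 bound to cyclin T1 or T2, phosphorylates RNA polymerase II and its pausing factors and so releases paused polymerase into elongation. Much of the cell's P-TEFb is held inactive by HEXIM1 on the 7SK small nuclear RNA, which LARP7 and the capping enzyme MEPCE stabilise. HEXIM1 mRNA is widely used as a marker of drug action because it rises in many cell types and in blood when BET proteins are inhibited, and MYC is the BET-dependent gene best known from blood cancers, where it falls. In the quiescent liver Myc is low, and it rises in injury and regeneration.

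The upstream sequence of Hexim1 is shown because Hexim1 is the marker gene of BET inhibition and 1 of the 2 members called here. Its single-exon gene lies on chromosome 11 at positions 103116231 to 103119725, plus strand (GENCODE, mm10), and the positions of the other members are given on the same build where each is described. The 156 bases before the annotated start of the gene (RefSeq, GRCm38.p6, chr11:103116075-103116230, plus strand) are 60.9% G and C and read as follows, with the matches to 3 promoter motifs in capitals.
Hexim1 upstream: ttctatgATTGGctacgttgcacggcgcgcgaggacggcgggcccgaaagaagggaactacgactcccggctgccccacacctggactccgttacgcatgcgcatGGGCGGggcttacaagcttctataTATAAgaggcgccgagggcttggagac
From 5′ to 3′ the capitals mark a CCAAT box on the minus strand (CCAAT, here read as ATTGG), a GC box (GGGCGG) and a TATA core (TATAA). The TATA core begins 27 bases before the start of the gene. All motifs were searched on both strands, and none of the matches overlapped. Of the promoter windows of 32851 genes, each cut to its first 156 bases, 20.9% held a CCAAT box, 17.5% a GC box and 15.2% a TATA core. The cut falls at the annotated gene start of Hexim1 but was not aligned to the starts of the other genes. These shares are therefore not matched for position. The E-box bound by Myc (CACGTG), present in 3.03% of those windows, had no match in these letters. A match describes the sequence and does not show that a factor bound there.

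Total counts per liver ranged from 34711229 to 53365596, and the lowest count of any member in any liver was 188, for Myc. All 6 hepatocyte markers examined (among them Alb, Apoa1 and Ttr) were expressed in every group, in keeping with the labelled tissue. One library stood apart. In I-BET151 mouse 3 the 10 highest genes took 7.95% of all counts against 13.5 to 18.0% in the other 11 livers, mitochondrial genes took 2.71% against 4.51 to 7.30%, and the summed level of 6 RNAs retained in the nucleus (Malat1 and Neat1 among them) was 4877 against 835 to 2167 in CPM, the unit used here for counts scaled to the size of each library. Hepatocyte markers summed to 21426 CPM in that liver against 54735 to 124359 CPM elsewhere. The methods of the study mention the exclusion of 1 unnamed I-BET151 library, and as no label names it, all 4 were kept here, and values or calls that moved most when mouse 3 was left out are also given without it.

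Between healthy and vehicle livers, Myc rose and Hexim1 fell, and the other 6 members did not pass the test. Genes were tested with edgeR's quasi-likelihood method at a Benjamini-Hochberg adjusted p of 0.05, which 7.10% of all genes tested passed, 5.72% as higher and 1.38% as lower in vehicle livers. Between vehicle and I-BET151 livers no member passed the threshold of 0.1 used for that comparison, which 0.351% of all genes passed (0.0951% higher and 0.256% lower after treatment). By the unadjusted edgeR p, 1 of the 8, Hexim1, was under 0.05 there, as were 1460 of the 16823 genes tested. DESeq2 called 0 members as well. Between healthy and I-BET151 livers, a comparison that shares the healthy mice with the first, Hexim1 and Myc were again past 0.05, as were 15.1% of all genes. The 4 values of one group lay wholly outside those of the other for 2 members between healthy and vehicle livers (26.4% of all genes did so), for 0 between vehicle and I-BET151 livers (5.04%) and for 2 between healthy and I-BET151 livers (19.8%). The shares of members called against healthy livers rest on Hexim1 and Myc alone. The median log2 fold change of the 8 members was -0.20 between healthy and vehicle livers and 0.07 between vehicle and I-BET151 livers, beside 0.01 and 0.02 over all genes.

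**Figure D1:**
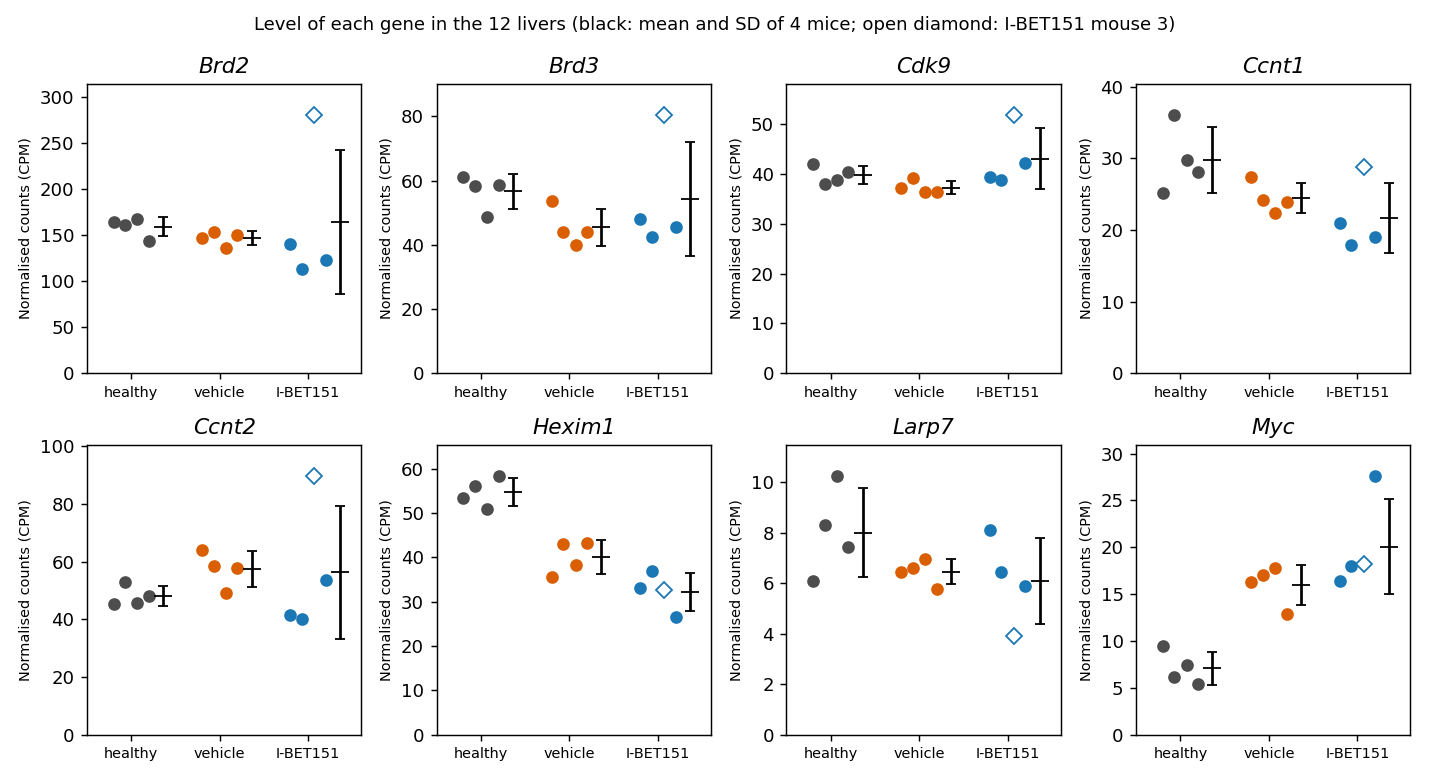
Normalised counts (CPM, linear axis from 0) of the 8 genes in each of the 12 livers, with the mean and SD of each group of 4 in black and I-BET151 mouse 3 as an open diamond. Hexim1 steps down from 50.9-58.3 CPM in healthy livers to 35.5-43.2 in vehicle livers, Myc steps up from 5.41-9.43 to 12.9-17.8, and mouse 3 is the highest I-BET151 liver for 5 of the 8 genes.

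Leaving out I-BET151 mouse 3 raised the counts of calls, among the members and among all genes. Between healthy and vehicle livers 3 members then passed (Brd3, Hexim1 and Myc) beside 22.3% of all genes. Between vehicle and I-BET151 livers the count stayed at 0 beside 2.38% of all genes. Between healthy and I-BET151 livers 5 passed (Brd2, Brd3, Ccnt1, Hexim1 and Myc) beside 20.4% of all genes. Within the I-BET151 group, mouse 3 had the highest value of 5 members (Brd2, Brd3, Cdk9, Ccnt1 and Ccnt2) and the lowest of Larp7.

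To rank genes of different length, levels were divided by the kilobases of annotated exon, merged over all transcripts of a gene. The ranks depend on that length, which can exceed that of the transcripts expressed. On this scale Brd2 was the most abundant member in healthy liver, at 20.3 ± 1.34 CPM per kb (SD, n = 4), followed by Hexim1 at 15.6 ± 0.915, Cdk9 at 8.61 ± 0.381 and Brd3 at 7.73 ± 0.753. A lower group followed, with Ccnt2 at 3.89 ± 0.287, Larp7 at 3.38 ± 0.738, Ccnt1 at 3.25 ± 0.504 and Myc at 2.61 ± 0.650 CPM per kb. Cdk9 and Brd3, and the neighbours within the lower group, differed by no more than the sum of their SDs, so their order is not resolved. In vehicle livers Myc, at 5.89 ± 0.795 CPM per kb, ranked above Larp7 (2.72 ± 0.208) and Ccnt1 (2.68 ± 0.231), while its differences from Brd3 (6.20 ± 0.791) and Ccnt2 (4.65 ± 0.507) were within the sum of the SDs. In I-BET151 livers Hexim1 (9.23 ± 1.23 CPM per kb) and Cdk9 (9.32 ± 1.32) stood level, where Hexim1 had been well above Cdk9 in healthy liver.

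Hexim1 encodes the inhibitor that binds P-TEFb on 7SK RNA. Its level in healthy livers 1 to 4 was 53.5, 56.1, 50.9 and 58.3 CPM. In vehicle livers it was 35.5, 43.1, 38.2 and 43.2 CPM. In I-BET151 livers it was 33.0, 36.9, 32.6 and 26.5 CPM. Every vehicle liver lay below every healthy liver, and the I-BET151 livers overlapped the vehicle livers through mouse 2 alone, whose value was above that of vehicle mouse 1. The group means were 54.7 ± 3.20, 40.0 ± 3.80 and 32.3 ± 4.30 CPM (SD, n = 4).

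Between healthy and vehicle livers Hexim1 fell by 0.45 on the log2 scale (SE 0.12, edgeR adjusted p = 0.0388), and between healthy and I-BET151 livers it fell by 0.76 (SE 0.12, edgeR adjusted p = 0.00177). Livers were taken once, at the end of the study, and the time since the last dose was not given in the sources used here. At that point treated livers did not show the rise of Hexim1 that is used as a marker of BET inhibition. Earlier times after a dose were not sampled. Relative to vehicle the log2 fold change in I-BET151 livers was -0.31 (SE 0.12, 95% interval -0.57 to -0.05), with an unadjusted edgeR p of 0.0226 that did not survive adjustment over all genes (adjusted p = 0.468, and 0.197 to 0.871 over fits that each left out 1 mouse). The fall from healthy to vehicle held its direction in all 12 fits with 1 mouse left out but passed the threshold in only 3 of them, those without I-BET151 mouse 2, 3 or 4 (adjusted p 0.00888 to 0.131 over the 12). The fall from healthy to I-BET151 livers passed in all 12.

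Hepatocyte markers were lower, like Hexim1, in vehicle than in healthy livers, with summed levels of 54735 to 73745 CPM against 105762 to 124359 CPM. All 6 were lower on average, with 0 past the threshold, and their part in the fall of Hexim1 was not tested. In I-BET151 livers 1, 2, 3 and 4 the sum was 71136, 81444, 21426 and 86307 CPM, which is within or above the vehicle range in all but mouse 3. In whole liver, fewer cells of a type and less RNA per cell cannot be told apart.

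Larp7 (chromosome 3, 127536714 to 127553349, minus strand) encodes the protein that binds the tail of 7SK RNA and keeps the particle stable. Its level in healthy livers 1 to 4 was 6.07, 8.29, 10.2 and 7.42 CPM, in vehicle livers 6.44, 6.61, 6.94 and 5.77 CPM, and in I-BET151 livers 8.09, 6.45, 3.93 and 5.88 CPM. The groups overlapped throughout. Its log2 fold change was -0.31 between healthy and vehicle livers (95% interval -0.76 to 0.14) and -0.08 between vehicle and I-BET151 livers (95% interval -0.53 to 0.37), the latter becoming 0.09 without I-BET151 mouse 3.

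The 7SK particle list also holds Hexim2, a close relative of Hexim1, Mepce, which caps 7SK RNA, and Rn7sk, the 7SK RNA itself. Of its 5 genes 1 (Hexim1) was called lower in vehicle livers and 0 were called after treatment. Hexim2 was expressed at 2.17 ± 0.210 CPM in healthy livers and its log2 fold change after treatment was -0.23 (SE 0.18, edgeR adjusted p = 0.784). Rn7sk was read only 14 to 94 times per liver, in libraries made from polyadenylated RNA, which 7SK RNA lacks. Its level in I-BET151 livers was 1.51, 0.542, 1.69 and 0.483 CPM, so that mice 1 and 3 were high and mice 2 and 4 lay within the vehicle range of 0.426 to 0.781. Its log2 fold change after treatment was 0.86 (SE 0.40, edgeR adjusted p = 0.576), and 0.57 without mouse 3 (SE 0.39, edgeR adjusted p = 0.476). Mepce moved from -0.14 to -0.31 without mouse 3 (SE 0.10, edgeR adjusted p = 0.143).

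Myc (chromosome 15, 61985391 to 61990374, plus strand), a transcription factor of cell growth, was the member that moved most. It was 9.43, 6.12, 7.44 and 5.41 CPM in healthy livers 1 to 4. It was 16.3, 17.03, 17.8 and 12.9 CPM in vehicle livers. It was 16.4, 18.0, 18.2 and 27.6 CPM in I-BET151 livers. Every liver of either STAM group was above every healthy liver, and the treated livers lay within the vehicle range or above it, with mouse 4 the highest of all. Means were 7.10 ± 1.77, 16.0 ± 2.16 and 20.1 ± 5.08 CPM (SD, n = 4).

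Between healthy and vehicle livers Myc rose 2.25-fold (log2 1.17, SE 0.20, edgeR adjusted p = 0.00410), and between healthy and I-BET151 livers 2.82-fold (log2 1.50, SE 0.20, edgeR adjusted p = 0.000680). Both passed in every one of 12 fits with 1 mouse left out. No fall of Myc was seen after treatment. The log2 fold change relative to vehicle was 0.33 (SE 0.20, 95% interval -0.10 to 0.75, edgeR adjusted p = 0.694), and it was 0.14 to 0.41 over the same 12 fits. Macrophage markers moved with Myc between healthy and vehicle livers. Of 5 examined, all 5 were higher on average in vehicle livers and 3 passed (Cd68, Clec4f and Adgre1), where 5.72% of all genes passed as higher. Their summed levels were 123 to 177 CPM in healthy, 191 to 331 in vehicle and 175 to 291 in I-BET151 livers, and none of the 5 was at 0. The 4 proliferation markers (Mki67, Top2a, Ccnb1 and Cdk1) summed to 2.34 to 3.44 CPM in healthy, 3.28 to 7.14 in vehicle and 1.96 to 2.62 in I-BET151 livers, with 0 called. Their part in the Myc values was not tested.

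The genes that pair with Myc or answer to it were counted next. Of 12 genes of the Myc network (Myc, its relatives Mycn and Mycl, the partner Max and the opposing Mxd, Mnt and Mga factors), Myc itself was called higher in vehicle livers and 0 were called after treatment, with medians of -0.0017 and 0.06. Besides Myc, the largest shifts after treatment were 0.34 for Mnt (SE 0.16, edgeR adjusted p = 0.590; 0.18 without mouse 3) and -0.32 for Mycl (SE 0.24, edgeR adjusted p = 0.781). Of 20 established Myc targets in ribosome making and metabolism, 1 rose and 1 fell between healthy and vehicle livers, where 7.10% of all genes were called. Cad, an enzyme of pyrimidine synthesis, rose by 0.56 on the log2 scale (SE 0.15, edgeR adjusted p = 0.0350), from 14.2 ± 1.55 to 20.8 ± 2.18 CPM. Ldha, lactate dehydrogenase A, fell by 1.05 (SE 0.30, edgeR adjusted p = 0.0492), from 1154 ± 157 to 555 ± 115 CPM. With 1 mouse left out at a time, Cad passed in 6 of 12 fits and Ldha in 2. Without I-BET151 mouse 3, 5 of the 20 passed (Cad and Ppan higher, Ldha, Npm1 and Odc1 lower), as did Mxi1 of the network, beside 22.3% of all genes. None of the 20 was called after treatment with or without that mouse, and their median log2 fold change was 0.06 between healthy and vehicle livers and 0.03 after treatment.

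Brd2 (chromosome 17, 34112023 to 34122634, minus strand) encodes a BET protein that binds acetylated histone H4 and supports transcription through chromatin. Its level was 164, 161, 168 and 144 CPM in healthy livers 1 to 4, 147, 154, 136 and 150.4 CPM in vehicle livers, and 140.5, 113, 280.4 and 123 CPM in I-BET151 livers. Mouse 3 was far above all other livers, and of the other 3 treated mice 2 were below every vehicle liver. The log2 fold change after treatment was 0.16 with all mice (SE 0.24, 95% interval -0.35 to 0.67) and turned to -0.22 without mouse 3 (SE 0.10, edgeR adjusted p = 0.278). Between healthy and I-BET151 livers it was 0.04 with all mice and -0.36 without mouse 3 (SE 0.10, edgeR adjusted p = 0.0253), when every treated liver was below every healthy one. Between healthy and vehicle livers the value was -0.12 (SE 0.24, 95% interval -0.63 to 0.39).

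Brd3 (chromosome 2, 27445579 to 27507662, minus strand), a BET gene whose product is known for binding acetylated GATA factors, followed Brd2 in its dependence on mouse 3. It was 61.1, 58.3, 48.6 and 58.8 CPM in healthy livers, 53.7, 44.1, 40.0 and 44.1 CPM in vehicle livers, and 48.1, 42.5, 80.6 and 45.7 CPM in I-BET151 livers. Healthy livers were mostly above vehicle livers, with an overlap through healthy mouse 3 and vehicle mouse 1. The log2 fold change between healthy and vehicle livers was -0.32 with all mice (SE 0.19, edgeR adjusted p = 0.343), and -0.34 and past the threshold without I-BET151 mouse 3 (SE 0.10, edgeR adjusted p = 0.0290). After treatment it was 0.25 (SE 0.19, 95% interval -0.15 to 0.65), and 0.01 without mouse 3 (SE 0.11). Brdt, the BET gene of the testis, was read 37 to 110 times per liver and had a log2 fold change after treatment of 0.70 (SE 0.26, edgeR adjusted p = 0.441). Of these 3 BET genes 0 were called in either comparison. With all mice, all 3 were lower on average in vehicle than in healthy livers (median -0.32) and all 3 higher after treatment (median 0.25).

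Brd2 overlaps H2-DMa on the opposite strand, and Ccnt1 overlaps the antisense RNA 9330020H09Rik. Those neighbours were read 77 to 307 and 31 to 105 times per liver, far less than either member, and the libraries were made with a kit that keeps strand.

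Cdk9 (chromosome 2, 32705784 to 32713076, minus strand), the kinase subunit of P-TEFb, varied least of the 8 members within healthy and within vehicle livers (coefficients of variation 4.43% and 3.53%), though not within I-BET151 livers (14.1%). It was 41.8, 37.9, 38.7 and 40.3 CPM in healthy livers, 37.1, 39.1, 36.3 and 36.2 CPM in vehicle livers, and 39.3, 38.6, 51.8 and 42.1 CPM in I-BET151 livers. All groups overlapped, and mouse 3 was again the highest. The log2 fold change was -0.09 between healthy and vehicle livers (95% interval -0.33 to 0.14) and 0.21 after treatment (95% interval -0.03 to 0.45), or 0.12 without mouse 3.

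The cyclin genes of P-TEFb differed in direction between healthy and vehicle livers, without either passing the test. Ccnt1 (chromosome 15, 98538689 to 98570923, minus strand), cyclin T1, was 25.1, 36.1, 29.8 and 28.1 CPM in healthy livers, 27.4, 24.2, 22.4 and 23.96 CPM in vehicle livers, and 20.95, 18.0, 28.8 and 19.0 CPM in I-BET151 livers. Without mouse 3 the treated livers were all below the vehicle livers. Its log2 fold change was -0.28 between healthy and vehicle livers (SE 0.16, edgeR adjusted p = 0.319) and -0.18 after treatment (SE 0.16, 95% interval -0.51 to 0.16), or -0.33 without mouse 3 (SE 0.12, edgeR adjusted p = 0.190). Between healthy and I-BET151 livers it was -0.46 (SE 0.16, edgeR adjusted p = 0.0658), and -0.64 and past the threshold without mouse 3 (SE 0.12, edgeR adjusted p = 0.00424).

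Ccnt2 (chromosome 1, 127774164 to 127808061, plus strand), cyclin T2, was 45.2, 53.0, 45.8 and 48.1 CPM in healthy livers, 64.1, 58.5, 49.0 and 57.9 CPM in vehicle livers, and 41.6, 40.2, 89.6 and 53.8 CPM in I-BET151 livers. Vehicle livers were above healthy livers except for vehicle mouse 3, which lay within the healthy range. The treated livers spanned both ranges. The log2 fold change was 0.26 between healthy and vehicle livers (SE 0.21, edgeR adjusted p = 0.519) and -0.03 after treatment (SE 0.21, 95% interval -0.49 to 0.43), or -0.34 without mouse 3 (SE 0.12, edgeR adjusted p = 0.180).

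**Figure D2:**
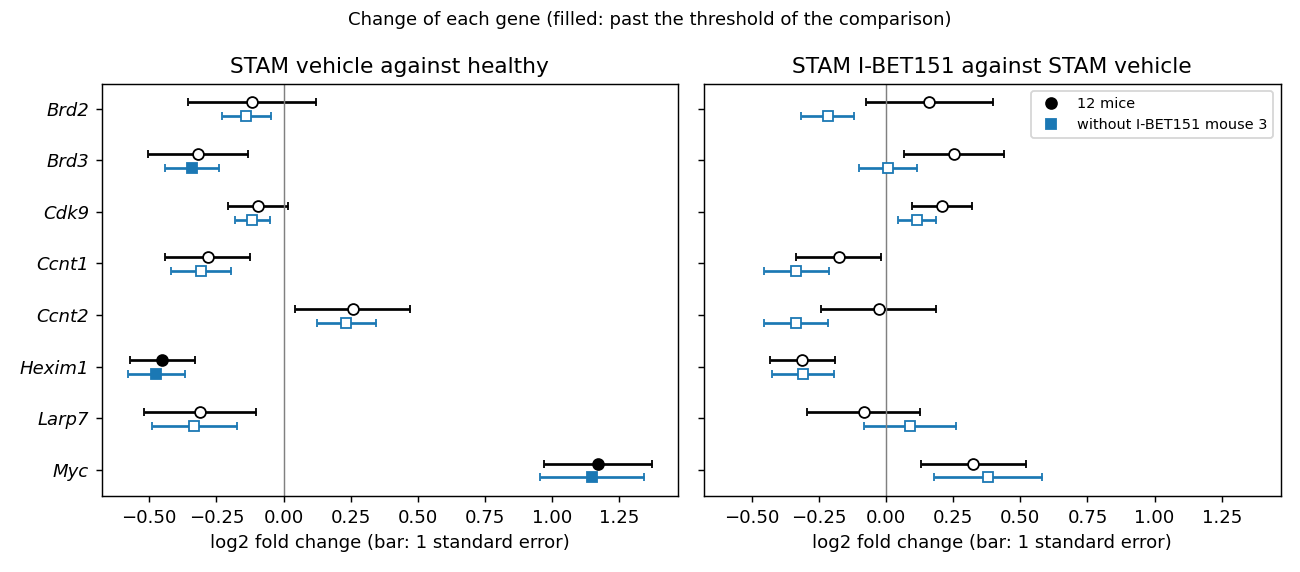
Log2 fold change of each gene with 1 standard error, between healthy and vehicle livers (left) and between vehicle and I-BET151 livers (right), with all 12 mice (circles) and without I-BET151 mouse 3 (squares), filled where the threshold was passed. Hexim1 (-0.45) and Myc (1.17) are filled on the left, no marker is filled on the right, and Brd2 moves from 0.16 to -0.22 on the right when mouse 3 is left out.

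Ratios of the counts of member pairs within one liver need no scaling between libraries. Over 4 pairs in 2 comparisons, 8 tests in all, a two-sided exact permutation test of 4 livers against 4 has 70 arrangements and cannot give a p below 0.0286. The log2 ratio of Hexim1, the inhibitor, to Cdk9, the kinase, averaged 0.46 ± 0.10 in healthy livers, 0.10 ± 0.13 with vehicle and -0.41 ± 0.30 with I-BET151 (SD, n = 4). It stepped down in both comparisons with no overlap, by 0.36 between healthy and vehicle livers and by 0.51 between vehicle and I-BET151 livers, each with an exact permutation p of 0.0286, the smallest possible, and 0.0762 after adjustment over the 8 tests. The separation after treatment was narrow, as the highest treated liver had a ratio of -0.07 and the lowest vehicle liver -0.06. The second difference stayed between -0.63 and -0.43 whichever single liver was left out, and Cdk9 itself was highest in mouse 3.

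The log2 ratio of Ccnt1 to Ccnt2 fell between healthy and vehicle livers, from -0.70 ± 0.13 to -1.22 ± 0.07 with no overlap (exact permutation p = 0.0286, adjusted 0.0762), though neither cyclin alone passed the test. In I-BET151 livers it was -1.32 ± 0.30, a difference of -0.10 from vehicle (exact permutation p = 0.543). Hexim1 to Larp7 differed by -0.16 between healthy and vehicle livers and by -0.19 after treatment (exact permutation p = 0.486 for each). Brd2 to Brd3 differed by 0.21 (exact permutation p = 0.200) and -0.15 (exact permutation p = 0.286). None of the 8 differences passed 0.05 after adjustment. With a smallest possible p of 0.0286, a ratio could pass only if several others also reached that p. Complete separation in 1 ratio could not pass by itself, so this outcome does not decide whether a ratio changed.

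**Figure D3:**
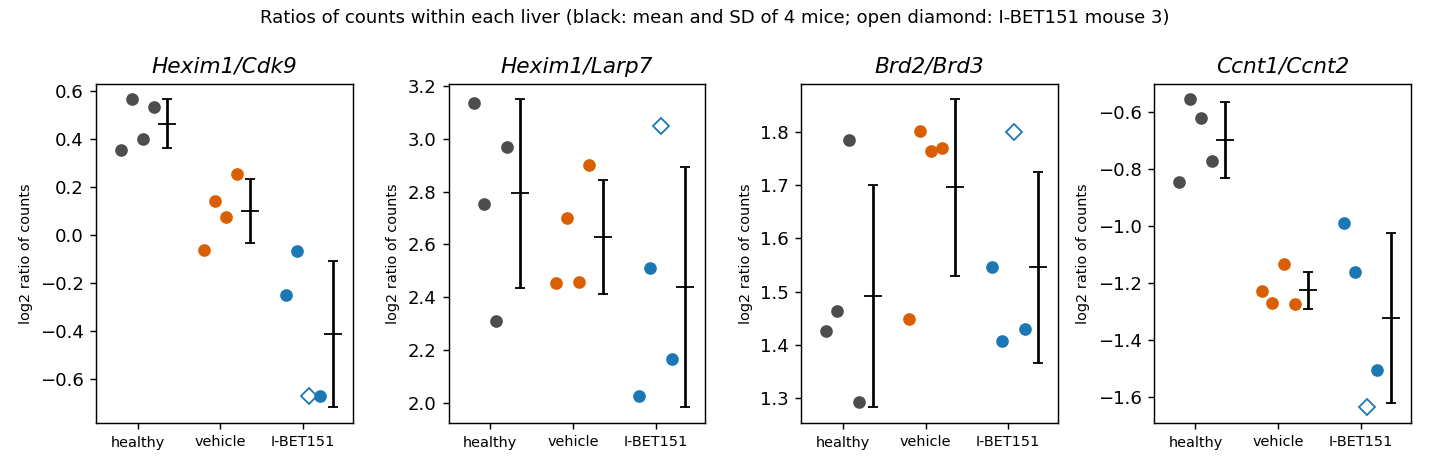
Log2 ratio of the counts of 4 gene pairs in each liver, with the mean and SD of each group of 4 in black and I-BET151 mouse 3 as an open diamond. Hexim1/Cdk9 steps down from 0.46 to 0.10 to -0.41 and Ccnt1/Ccnt2 from -0.70 to -1.22 between healthy and vehicle livers, whereas the groups overlap in the other pairs.

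Vehicle and I-BET151 livers could also be compared within the sequencing lanes they shared, which were lanes 6, 7 and 2 with 1 liver of each group in each. Hexim1 was lower in the treated liver in all 3, by log2 differences of -0.10, -0.23 and -0.70. Myc differed by 0.01, 0.04 and 1.10, so that nearly all of its difference came from lane 2. Brd2 differed by -0.06, 1.04 and -0.29, and Ccnt2 by -0.63, 0.87 and -0.11, the positive values being those of mouse 3. Healthy and vehicle livers shared only lane 2, where Hexim1 differed by -0.31 and Myc by 0.45. With lane as a term in the fit, 0 members passed between healthy and vehicle livers (Myc 1.03, edgeR adjusted p = 0.400, and Hexim1 -0.42, edgeR adjusted p = 0.702). Of the 16823 genes tested, 37 passed in that fit.

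The machinery that P-TEFb works with was followed through further lists. Of 9 super elongation complex genes 8 were tested, with 0 called in either comparison and medians of 0.02 and 0.05. Its largest shifts after treatment were -0.52 for the elongation factor Ell2 (SE 0.24, edgeR adjusted p = 0.571) and 0.30 for Ell (SE 0.19, edgeR adjusted p = 0.721). Without I-BET151 mouse 3 these became -0.33 and 0.05, and Eaf1, which binds ELL proteins, was called higher after treatment at 0.35 (SE 0.08, edgeR adjusted p = 0.0691), where 2.38% of all genes were called. Of 14 pausing and elongation factors 0 were called in either comparison, with medians of -0.11 and 0.03. Nelfcd, a subunit of the negative elongation factor, and Cdc73, a subunit of the PAF complex, shifted most after treatment, at 0.30 (SE 0.11, edgeR adjusted p = 0.401) and -0.26 (SE 0.19, edgeR adjusted p = 0.781), the latter becoming -0.06 without mouse 3. Without I-BET151 mouse 3, 6 of the 14 passed between healthy and vehicle livers beside 22.3% of all genes, 5 as lower (Nelfcd, Leo1, Rtf1, Supt4a and Paf1) and Supt5 as higher. Supt5 is the larger subunit of the pausing factor DSIF.

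Other transcription kinases and their partners (9 genes, among them Cdk7, Cdk8, Cdk12 and their cyclins) had 0 called in either comparison and medians of -0.06 and -0.09. Mnat1, the assembly factor of the Cdk7 complex, had a log2 fold change after treatment of 0.29 (SE 0.18, edgeR adjusted p = 0.718) and Cdk12 one of -0.21 (SE 0.11, edgeR adjusted p = 0.652). Without I-BET151 mouse 3, Mnat1 passed after treatment at 0.46 (SE 0.11, edgeR adjusted p = 0.0746), and Ccnh, the cyclin of the same complex, passed between healthy and vehicle livers at -0.44 (SE 0.12, edgeR adjusted p = 0.0175). Of 11 proteins that bind BET proteins or acetylate their targets 0 were called in either comparison, with Zmynd8, a chromatin reader, at 0.27 (SE 0.16, edgeR adjusted p = 0.689; 0.08 without mouse 3) and Med24, a Mediator subunit, at 0.24 (SE 0.11, edgeR adjusted p = 0.576). The medians of that list were 0.05 and -0.01.

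Genes reported elsewhere as markers of a BET inhibitor response were a list of 7 (Hexim1, Serpini1, Zmynd8, Zcchc24, Hist2h2be, Ccr2 and Myc), of which 0 were called after treatment. Besides Hexim1 and Myc, none was called between healthy and vehicle livers. Hist2h2be, a polyadenylated histone gene, had a log2 fold change after treatment of -0.51 (SE 0.26, edgeR adjusted p = 0.620).

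The list with the most calls was that of the immediate early genes, whose release from pausing is a classic step of P-TEFb action. Of 10 genes, 4 rose between healthy and vehicle livers, where 5.72% of all genes did, and 1 fell after treatment, where 0.256% did. The medians were 1.15 and -0.49 beside 0.01 and 0.02 over all genes. T cell and proliferation markers moved in the same directions. All 4 proliferation markers were higher on average in vehicle than in healthy livers (median 0.67, 0 called). All 4 were lower after treatment (median -1.02, 0 called). All 5 T cell markers were higher on average in vehicle than in healthy livers (median 0.94, 1 called, Cd8a) and all 5 were lower after treatment (median -1.15, 0 called). They were read at low levels, with sums of 1.06 to 3.23 CPM in healthy livers, 2.86 to 4.14 CPM with vehicle and 1.29 to 1.99 CPM with I-BET151. Of the 5, 1 had a mean over 1 CPM in vehicle livers and 0 in the other groups. Nuclear-retained RNAs also rose between healthy and vehicle livers, where 5 of 6 were higher on average. They summed to 835 to 1246 CPM in healthy and 1357 to 2167 CPM in vehicle livers. In I-BET151 livers 1 to 4 the sums were 1580, 1176, 4877 and 1229 CPM. Mouse 3 alone was above the vehicle range, mouse 1 was within it and mice 2 and 4 were below it. With mouse 3 included, all 6 RNAs had positive log2 fold changes after treatment (median 0.27), so their direction there is not settled. The part of the T cell markers, the proliferation markers and these RNAs in the immediate early values was not tested. Atf3, a stress-induced transcription factor, rose by 2.75 on the log2 scale (SE 0.36, edgeR adjusted p = 0.000790), Ier3 by 1.86, Fos by 1.70 and Klf6 by 0.96. Ier2, a gene of the early response to growth factors, was 21.9, 21.9, 22.9 and 19.6 CPM in healthy, 21.4, 35.3, 23.1 and 39.7 CPM in vehicle and 13.9, 17.5, 12.3 and 16.7 CPM in I-BET151 livers. Every treated liver was below every other liver. Its log2 fold change after treatment was -0.98 (SE 0.19, edgeR adjusted p = 0.0648), and with 1 mouse left out at a time it passed in 5 of 12 fits, those without healthy mouse 1, vehicle mouse 1 or 3, or I-BET151 mouse 2 or 3 (edgeR adjusted p 0.0554 to 0.233 over the 12).

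The same list held 3 further genes near the threshold after treatment. Egr1, an early growth response factor, was 84.7, 244, 130 and 302 CPM in vehicle livers and 54.6, 22.4, 17.9 and 25.8 CPM in treated livers, and its log2 fold change was -2.65 (SE 0.62, edgeR adjusted p = 0.145). Fos, a subunit of AP-1, was 3.77, 9.39, 6.46 and 11.4 CPM in vehicle livers and 2.41, 1.63, 2.56 and 3.58 CPM in treated livers (log2 -1.60, SE 0.38, edgeR adjusted p = 0.150). Junb, its partner, was at -0.50 (SE 0.12, edgeR adjusted p = 0.148). The treated livers were wholly below the vehicle livers for all 3, and without I-BET151 mouse 3 Junb passed (-0.45, SE 0.11, edgeR adjusted p = 0.0820) while Egr1 (adjusted p = 0.110) and Fos (adjusted p = 0.102) did not. Fosb, another AP-1 gene, read at under 1 CPM, had a log2 fold change after treatment of -0.77 with all mice (SE 0.44, edgeR adjusted p = 0.669), and it passed without mouse 3 at -1.41 (SE 0.37, edgeR adjusted p = 0.0991). Between healthy and vehicle livers it was 1.34 (edgeR adjusted p = 0.103), and 1.31 and past the threshold without mouse 3 (edgeR adjusted p = 0.0173). Egr1, Junb and Fosb were named after their values were seen. Egr1 ranged from 11.5 to 111 CPM among healthy livers, a spread wider than that of any member.

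**Figure D4:**
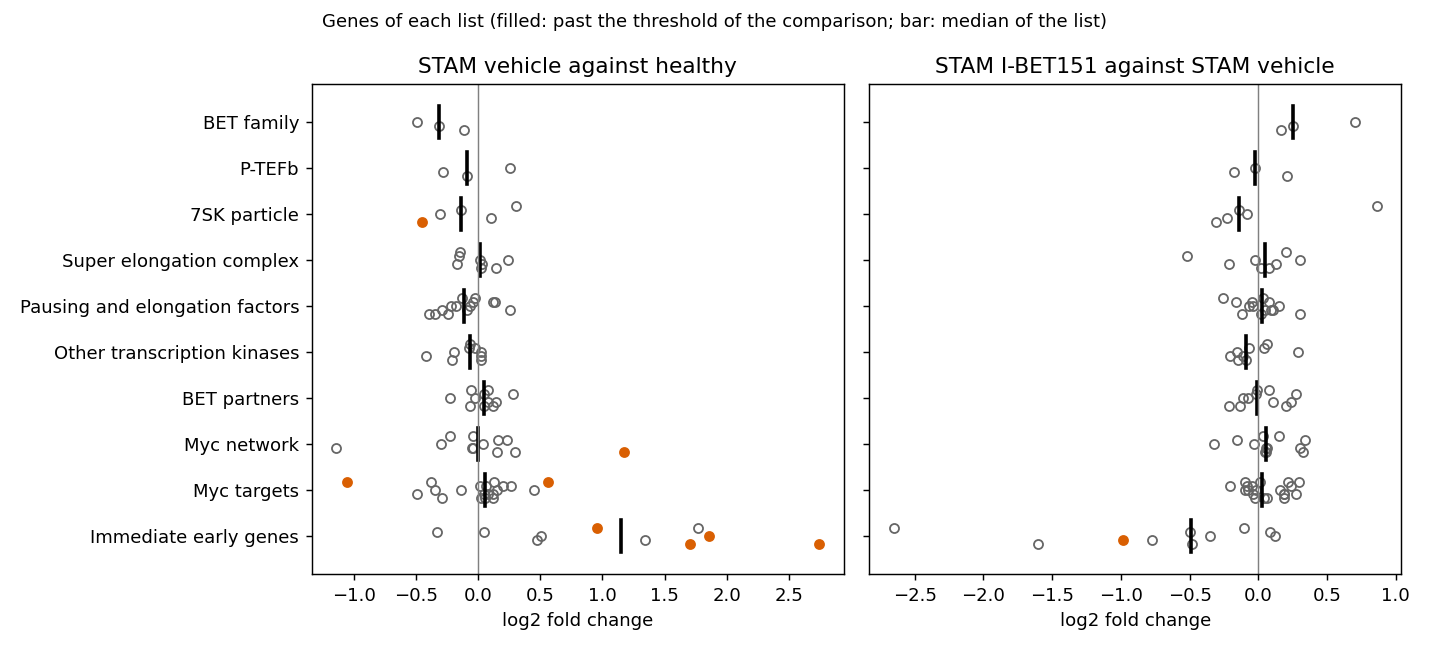
Log2 fold change of every tested gene of 10 lists between healthy and vehicle livers (left) and between vehicle and I-BET151 livers (right), filled where the threshold was passed, with the median of each list as a bar. Immediate early genes spread to the right on the left panel (median 1.15) and to the left on the right panel (median -0.49), while the medians of the 7SK particle, P-TEFb, elongation, kinase and BET partner lists lie between -0.14 and 0.05 in both. The 3 genes of the BET family list lie outside that band, with medians of -0.32 (left) and 0.25 (right).

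The genes whose level was most like that of a member over the 12 livers were named as a description, by Pearson correlation of log2 CPM, and these points share the same libraries and groups. For Hexim1 they were Snx18 (r = 0.97), a sorting nexin, Them4 (0.96), Fads1 (0.95), a fatty acid desaturase, Tuba4a (0.95) and Hsd11b1 (0.94), which regenerates active glucocorticoid in liver. For Myc they were Cln6 (r = 0.97), Msantd3 (0.97), Rps6ka4 (0.97), a kinase of the stress response, Arl8a (0.96) and Arhgef7 (0.96). For Brd2 they were Nsmf (r = 0.98), Ocel1 (0.96), B230206L02Rik (0.95), Cyp2d37-ps (0.95) and Ccdc163 (0.95). For Brd2 the rank correlations of those 5 ran from 0.60 to 0.93, lower than the 0.95 to 0.97 of the genes named for Hexim1, and the I-BET151 livers varied more in Brd2 (coefficient of variation 47.7%) than in any other member.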

How the data were processed

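Liver RNA from 12 mice was sequenced by the authors as stranded polyadenylated RNA libraries with paired 101-base reads. Per the labels, reads were aligned to mm10 with STAR 2.5.1b, with HTSeq also named, and the authors deposited a table of unnormalized read counts per gene for each mouse. The annotation release was not given in the sources used here, and GENCODE M21 matched 47224 of 47729 identifiers.

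Counts were tested in R 4.3.3 with edgeR 4.0.16 (glmQLFit, glmQLFTest, TMM, filterByExpr with a minimum count of 10), with the 3 groups in one fit, because the deposited values are counts. The study used DESeq2, an alternative here (version 1.42.0). p-values were adjusted over 16823 genes. CPM are counts scaled to TMM-adjusted library size, and the script was tested on simulated data. Ratios used counts plus 1 and exact permutation tests over all arrangements, written in Python 3.11.15. Rank correlations used SciPy 1.17.1. The 95% intervals are for the log2 fold change between groups, from a standard error that rests on the spread between mice. They do not give the range of single mice. Total counts were 34711229 to 53365596. No pair of livers agreed within sampling noise.

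Named list genes were mainly those past a threshold in either main comparison or among the largest changes of their list after treatment. Mepce, Eaf1, Ccnh, Leo1, Rtf1, Supt4a, Paf1, Supt5, Ppan, Npm1, Odc1 and Mxi1 were outside that rule. They were named for their values without I-BET151 mouse 3, after those values were seen. Members and lists were chosen with earlier results of these data known. A further gene of the BET family is not reported here.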

Additional observations from a re-analysis of the deposited data

How the results depend on the processing

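Over 7 alternatives that kept all mice (other size factors, no filter, at least 10 counts in every mouse, 2 groups only, the replicate block, lane, DESeq2), 154 of 168 values for the members kept their direction and side of the threshold, 7 lost their call, 3 gained one and 4 changed sign. In the main fit only 2, 0 and 2 of the 8 members were called in the 3 comparisons. Most of the 154 were therefore values that stayed uncalled, and all 7 losses were calls of Hexim1 or Myc. The sign changes were between healthy and I-BET151 livers: Brd2 at -0.022 with the replicate block, -0.24 with lane and -0.0048 with DESeq2, and Cdk9 at -0.0084 with lane. Members called between healthy and vehicle livers numbered 1 with the replicate block, 1 with no filter and 1 with the 10-count minimum, Hexim1 being the one lost (adjusted p = 0.0890, 0.0936 and 0.0517), and 0 with lane. Of all tested genes those fits called, in the same order, 742, 1204, 903 and 37. Between healthy and I-BET151 livers 0 members were called with lane, beside 85 of 16823 genes.

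Other list genes called between healthy and vehicle livers numbered 6, and 17 with 2 groups only, 2 with the replicate block and 0 with lane. Of all tested genes the same fits called 1195, 3879, 742 and 37. After treatment the other list genes called numbered 1, and 3 with no filter, 4 with DESeq2 and 0 with 2 groups only, with the replicate block or with lane. The calls over all tested genes were then 59, 101, 268, 8, 10 and 0, so the list counts followed the totals. The replicate numbers did not pair the mice, as the mean correlation of same-numbered mice was -0.0927. The lane fit holds 1 to 3 mice in each lane and has fewer residual degrees of freedom by construction.

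Leaving out 1 mouse gave Brd2 values from -0.22 to 0.30 after treatment and -0.36 to 0.18 between healthy and I-BET151 livers. Against healthy livers the same fits gave -0.33 to 0.028 for Brd3, -0.00060 to 0.16 for Cdk9 and -0.10 to 0.35 for Ccnt2. After treatment they gave -0.34 to 0.10 for Ccnt2, -0.25 to 0.091 for Larp7 and -0.21 to 0.0079 for the Ccnt1/Ccnt2 ratio. Members called ranged from 1 to 3 between healthy and vehicle livers and from 2 to 5 between healthy and I-BET151 livers. Other list genes called ranged from 3 to 18 and, after treatment, from 0 to 5. The highest of these counts came without I-BET151 mouse 3. Of all tested genes the same fits called 546 to 3779 between healthy and vehicle livers, 1292 to 3731 between healthy and I-BET151 livers and 13 to 403 after treatment. The cause of these shifts was not tested.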
